A study of Mus musculus with 12 samples.

Results

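The 9 genes described here encode enzymes that make nicotinamide adenine dinucleotide (NAD), phosphorylate it to NADP or reduce NADP in mitochondria, and they were read in hearts of wild-type and apelin-knockout mice that had aortic banding or a sham operation. They are Nmrk1, Nmrk2, Nampt, Nmnat1, Nmnat3, Naprt, Nadsyn1, Nadk and Nnt, out of 18193 genes that have a probe set of their own on the array. They were taken by symbol, with every probe set annotated to 1 of them and to no other gene, which gave 18 of 34945 such probe sets. The set was chosen by pathway around Nmrk2, which was selected on its banded against sham intensities in knockout hearts. Members' values from that comparison are therefore given as a description, with no p-value for a single member. Adjusted p-values of further NAD genes there are also a description, because their lists were chosen with earlier results of these data known.

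There were 4 groups of 3 arrays, labelled as biological replicates. They were wild type with sham operation, wild type with aortic banding, apelin knockout with sham operation and apelin knockout with aortic banding. Banding narrows the aorta, so that the heart pumps against a raised pressure. The labels give neither strain, age, sex nor time after surgery. RNA of the heart mixes cell types, so fewer cells of a type and less RNA per cell cannot be told apart.

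NAD carries electrons in the oxidation of fuels and is consumed by sirtuins and poly(ADP-ribose) polymerases, so that cells keep rebuilding it. Most of it is recycled from nicotinamide by NAMPT, whose product NMN is turned into NAD by the NMNAT enzymes. A parallel entrance starts from nicotinamide riboside, which the kinases NMRK1 and NMRK2 phosphorylate to NMN, and NMRK2 is the form found mainly in muscle. Nicotinic acid enters through NAPRT and NADSYN1, NADK makes NADP, and NNT uses the proton gradient of the inner mitochondrial membrane to make NADPH.

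The array labelled knockout banded 1 stood apart from the other knockout banded arrays and is given separately throughout. Its Apln intensity was 271, within the wild-type range of 205 to 333, against 63.7 to 160 in the other 5 knockout arrays. Its summed lung marker level (5 of 5 markers in the table) was 1637, against 142 to 215 in the other 11 arrays. That sum was carried by the airway genes Scgb1a1 (1094) and Scgb3a2 (410), while Sftpc (49.2), Sftpb (54.3) and Sftpa1 (30.4) lay within the range of the other arrays. Its summed adipocyte marker level (3 of 5) was 457, against 379 in wild-type banded 1 and at most 120 in the rest. Wild-type banded 3 read 1255 for Xist, a transcript of female cells, against 43.3 to 89.2 in the other 11 arrays. Its Y-linked genes Eif2s3y and Kdm5d read 0.468 and 4.86, against 270 to 395 and 94.7 to 164 in the other 11. By these readings that heart was female and the other 11 male, so the wild-type banded group mixed sexes. The same array held the highest wild-type Nmrk2 intensity (192) and the lowest wild-type intensity at the brightest Nampt probe set (1021). As a measure of RNA integrity, the Actb control probe sets gave a 3′ over 5′ log2 ratio of -0.22 to -0.17 in the 3 knockout banded arrays and of -0.09 to 0.30 in the other 9. The same ratio from the Gapdh control probe sets overlapped, with -0.345 to -0.324 in the knockout banded arrays and -0.389 to -0.328 in the other 9. The cardiomyocyte marker sum (9 of 9) was 73537 to 75512 in knockout banded hearts, 73776 to 137790 in wild-type sham, 83673 to 103810 in wild-type banded and 88560 to 97582 in knockout sham hearts. The highest intensity of any probe set was 10813 to 11291 in knockout banded arrays, 10231 in wild-type sham 2 (sum 73776) and 21832 in wild-type sham 3 (sum 137790). The marker Tnnt2 read 10267 to 10523, 9991 and 20030 there. Whether the sum follows that maximum rather than cell content was not tested. The atrial marker sum (5 of 5) was 12421 to 16320 in knockout banded hearts and ranged from 4097 to 34348 over the other 9, and Sln, an atrial gene, read 1.42 in wild-type banded 3 and 7649 in wild-type banded 1. The part of these differences in the results was not tested. Arrays correlated at 0.962 to 0.984 within groups.

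The promoters of Nmrk2 and Nampt are shown because Nmrk2 was highest and Nampt lowest in the same 2 hearts, knockout banded 2 and 3, among the 12. Both stretches are the 150 bases before the start site in RefSeq's mouse build GRCm38.p6, printed 5′ to 3′ on the gene's strand. Nmrk2 lies at chr10:81202038-81202187 on the minus strand, and Nampt at chr12:32820185-32820334 on the plus strand. Capitals mark matches on either strand to CANNTG (the E-box), TATAAA (the TATA box) and GGGCGG (the GC box); no marked matches overlap each other.
Nmrk2: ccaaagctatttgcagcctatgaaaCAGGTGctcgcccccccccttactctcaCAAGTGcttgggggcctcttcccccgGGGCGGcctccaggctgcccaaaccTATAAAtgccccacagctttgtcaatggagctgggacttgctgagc
Nampt: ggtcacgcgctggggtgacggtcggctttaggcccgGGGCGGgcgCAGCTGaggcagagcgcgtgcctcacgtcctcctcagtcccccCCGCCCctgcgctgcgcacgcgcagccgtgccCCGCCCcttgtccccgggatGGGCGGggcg
The Nmrk2 window held 1 TATAAA match, which 7.57% of 32851 mouse promoter windows of this length hold, 2 CANNTG matches (2 or more in 15.3%) and 1 GGGCGG match (28.6% hold at least 1). The Nampt window held no TATAAA match, 1 CANNTG match (47.7%) and 4 GGGCGG matches (2 or more in 12.8%), and its GC content was 78.0% against 59.3% for Nmrk2 and a median of 54% over all windows. RefSeq's record of the Nmrk2 gene reaches further upstream than this window. A match is a run of letters, not a measured binding site.

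Nmrk2 was high in knockout banded hearts 2 and 3 and low in every other heart. Its intensities were 98.9, 96.2 and 114 in wild-type sham hearts, and 89.0, 124 and 192 in wild-type banded hearts. They were 140, 71.0 and 85.8 in knockout sham hearts, and 186, 903 and 1603 in knockout banded hearts. The wild-type groups overlapped, and so did the sham groups, while the lowest knockout banded array lay above all knockout sham arrays but below wild-type banded 3. The knockout banded mean of 898 ± 709 was 9.06 times the sham mean of 99.1 ± 36.6 (SD, n = 3), a log2 difference of 2.59 (SE 0.56). Without knockout banded 1 it was 3.45 (SE 0.31), or 12.6 times on the intensity scale. Differences are on the log2(intensity + 16) scale, which understates changes of dim genes.

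**Figure D1:**
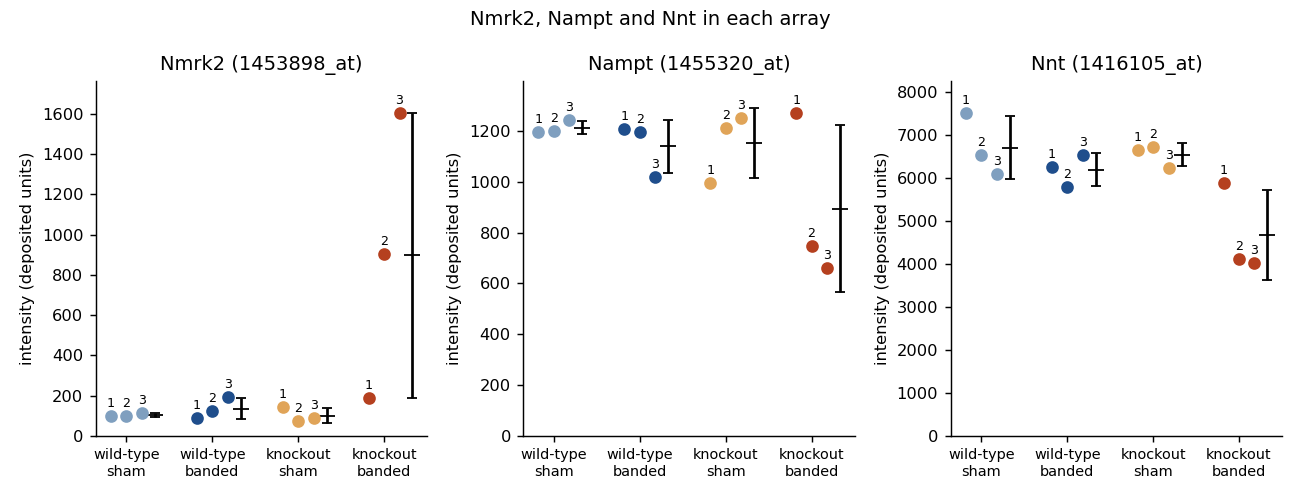
Intensity of Nmrk2, Nampt and Nnt in each of the 12 arrays by group, with replicate numbers from the labels and, in black, the mean ± SD of 3 arrays. Knockout banded 2 and 3 hold the highest Nmrk2 values (903 and 1603) and the lowest Nampt and Nnt values, while knockout banded 1 lies near the sham arrays in all 3 panels.

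In wild-type hearts banding was not followed by a detectable change of Nmrk2. The mean was 103 ± 9.85 after sham operation and 135 ± 52.6 after banding (SD, n = 3), a difference of 0.29 log2 with a 95% interval of -0.92 to 1.5 (limma adjusted p = 0.990). The fit pools the spread of all 4 groups, so this interval also holds the scatter of the knockout banded hearts. Its SE was 0.56, and 0.28 for the same difference without knockout banded 1 (limma adjusted p = 0.920). Without wild-type banded 3 the difference was 0.03. The banding effect of the knockout exceeded that of the wild type by 2.30 (SE 0.79), given as a value because it contains the comparison that made Nmrk2 known. Averaged over surgery, a contrast that uses the same knockout banded arrays and is also given as a value, knockout minus wild type was 1.06 (SE 0.39), and 1.49 without knockout banded 1.

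Among the knockout banded hearts Nmrk2 and Myh7, the slow myosin heavy chain gene known to rise in loaded mouse hearts, had different patterns. Myh7 read 9203, 9324 and 9091 in knockout banded hearts 1, 2 and 3, near the highest intensity of any probe set on those arrays (10813 to 11291), and whether readings are compressed there was not tested. Their Nmrk2 intensities were 186, 903 and 1603. Wild-type banded hearts read 10045, 6718 and 1918 for Myh7, and the heart with the highest Myh7 among all 12 had an Nmrk2 intensity of 89.0. Acta1, the skeletal actin gene that is also raised by load, read 8138, 8235 and 8976 in the knockout banded hearts. Postn, which encodes the matrix protein periostin, had the Nmrk2 pattern instead, with 639, 4719 and 3978 in those hearts and 303 to 634 in the other 9. The Nppb intensity, a natriuretic peptide gene, was 4999 in knockout banded 1, and 8018 and 8390 in the other 2.

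The summed markers of skeletal muscle, where Nmrk2 is also expressed, were not raised in knockout banded hearts. The sum of 9 of 9 skeletal muscle markers was 159 to 191 in knockout banded hearts, 183 to 279 in knockout sham, 227 to 257 in wild-type sham and 254 to 439 in wild-type banded hearts. The 2 hearts with the highest Nmrk2 had sums of 159 and 191. Of these markers Myh1, a fast skeletal myosin gene, stayed below an intensity of 16 in all 12 arrays. The summed fibroblast markers (6 of 6) were 6181 in knockout banded 1, and 10392 and 9178 in knockout banded 2 and 3. They were 9660 to 11077 in wild-type banded, 7538 to 9765 in wild-type sham and 6319 to 7723 in knockout sham hearts. Dcn, the brightest of the 6, read 5022 and 5195 in knockout banded 2 and 3, within the 4569 to 7546 of the other 9. Col1a2, a collagen gene, was the only 1 of the 6 that was highest in both. It read 2282 and 1620 there, against 668 in knockout banded 1 and 436 to 1333 in the other 9. The summed macrophage markers (6 of 6) were 2542, 3830 and 3806 in knockout banded hearts 1, 2 and 3, and 2703 to 4310 in the other 9. Their part in the Nmrk2 values was not tested.

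The tested genes whose values were most like those of Nmrk2 over the 12 arrays were Xirp1 (Pearson r = 0.976), Comtd1 (0.969), Pfkp (0.964), Nudt18 (0.962) and Sema7a (0.961). Xirp1 encodes an actin-binding protein of the intercalated disc, and Pfkp a phosphofructokinase of glycolysis. After each group's mean was subtracted the closest were Comtd1 (0.966), Sema7a (0.963), Xirp1 (0.955), Ak4 (0.949) and Myo1c (0.941). These correlations describe 12 arrays that share 2 hearts with very high Nmrk2, and they carry no test.

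Nampt, the gene of the recycling enzyme, was low in the same 2 hearts. At its brightest probe set intensities were 1197, 1200 and 1243 in wild-type sham hearts and 1208, 1195 and 1021 in wild-type banded hearts. They were 995, 1213 and 1250 in knockout sham hearts, and 1270, 749 and 661 in knockout banded hearts. Knockout banded 1 was the highest of all 12 arrays and the other 2 were the lowest, so the knockout groups overlapped. The knockout banding difference was -0.41 (SE 0.19), and -0.69 (SE 0.12) without knockout banded 1.

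All 3 Nampt probe sets gave this order at the low end. At the second probe set knockout banded 2 and 3 read 593 and 686 against 850 to 1312 in the other 10 arrays, and at the dimmest they read 217 and 216 against 283 to 488. Relative to the knockout sham mean, knockout banded 2 and 3 averaged 61.2%, 61.5% and 57.3% at the 3 probe sets. The probe sets correlated at 0.867 to 0.930 over the 12 arrays.

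**Figure D2:**
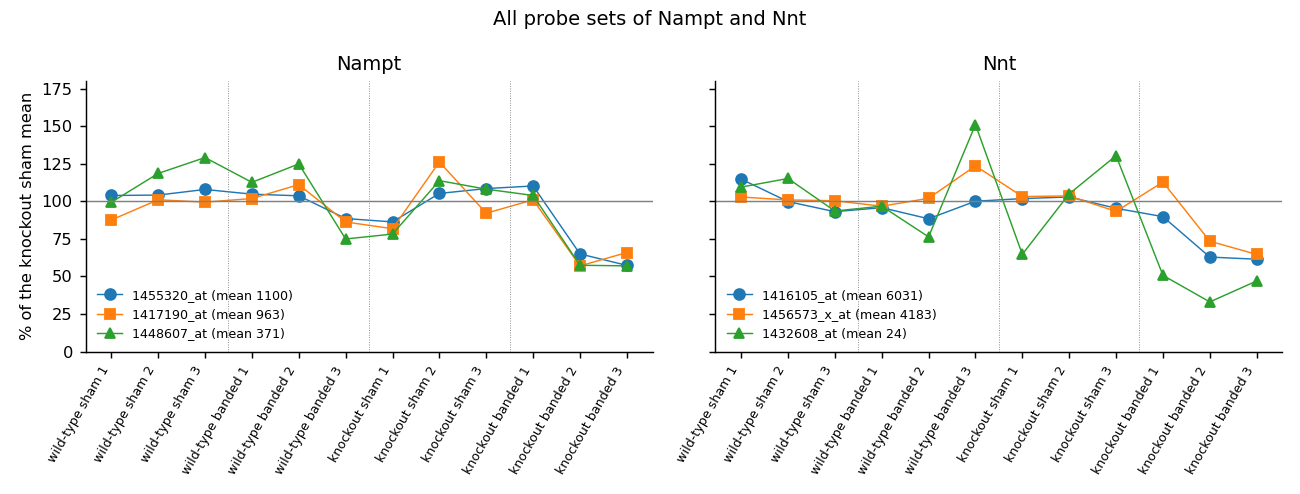
Intensity of each of the 3 probe sets of Nampt (left) and of Nnt (right) in every array, as a percentage of that probe set's knockout sham mean, with the groups separated by dotted lines. Knockout banded 2 and 3 are at the right edge and lie lowest at the 3 Nampt probe sets and at the brightest 2 Nnt probe sets; the dim Nnt probe set varies most between arrays.

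In wild-type hearts Nampt differed after banding by -0.09 (95% interval -0.50 to 0.32, limma adjusted p = 0.992). Among banded hearts knockout minus wild type was -0.40 (SE 0.19, limma adjusted p = 0.352). Without knockout banded 1 this became -0.68 (SE 0.12, limma adjusted p = 0.00730), with both remaining knockout banded arrays below all 3 wild-type banded arrays. Over 25 other settings the limma adjusted p was 0.00730 to 0.726, and 3 of them passed. In sham hearts the genotypes differed by -0.08 (95% interval -0.49 to 0.33, limma adjusted p = 0.997).

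Nnt, the mitochondrial transhydrogenase gene, had its lowest readings in the same hearts. Its brightest probe set read 7510, 6530 and 6091 in wild-type sham, 6266, 5782 and 6547 in wild-type banded hearts. It read 6660, 6731 and 6237 in knockout sham hearts, and 5875, 4116 and 4021 in knockout banded hearts. The knockout banded arrays all lay below the knockout sham arrays, but knockout banded 1 lay within the wild-type banded range. In knockout hearts the mean was 6543 ± 267 after sham operation and 4671 ± 1044 after banding (SD, n = 3), a difference of -0.51 (SE 0.14), and of -0.68 (SE 0.12) without knockout banded 1.

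The second bright Nnt probe set read 4810, 3132 and 2757 in knockout banded hearts against 3977 to 5269 in the other 9. The dim one read 13.4, 8.75 and 12.4 there, below all other 9, which read at least 17.1, so here knockout banded 1 was low as well. In wild-type hearts the banding difference of Nnt was -0.11 (95% interval -0.42 to 0.20, limma adjusted p = 0.982). Among banded hearts knockout differed from wild type by -0.43 (SE 0.14, limma adjusted p = 0.216), and by -0.60 (SE 0.12, limma adjusted p = 0.0145) without knockout banded 1. The limma adjusted p was 0.0145 to 0.565 over 25 other settings, 2 of which passed. These were the fits without knockout banded 1 and with array weights, and the contrast uses the knockout banded arrays on which Nmrk2 was chosen. Strains of laboratory mice are known to differ in the Nnt gene, and in the sham hearts the genotypes differed by -0.03 (95% interval -0.34 to 0.28, limma adjusted p = 0.997).

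**Figure D3:**
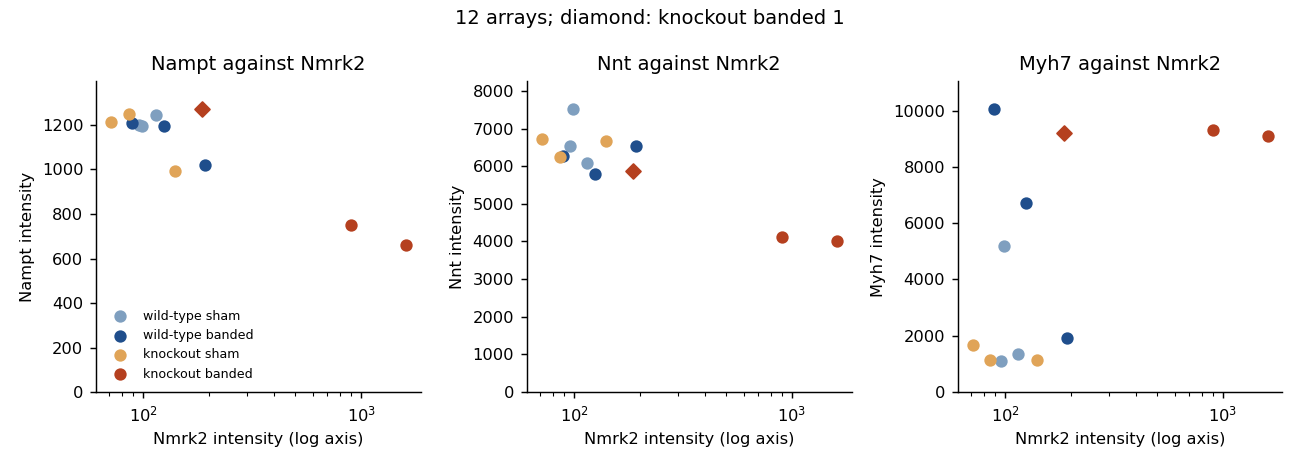
Intensity of Nampt, Nnt and Myh7 (vertical axes) against that of Nmrk2 (horizontal log axis) in the 12 arrays, coloured by group, with knockout banded 1 as a diamond. The 2 arrays at the right, with Nmrk2 at 903 and 1603, are lowest for Nampt and Nnt, while Myh7 is as high in knockout banded 1 (9203) as in those 2.

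The values most like those of Nnt over the 12 arrays belonged to Ttll1 (Pearson r = 0.952), Egflam (0.947), Coq8a (0.941), Decr1 (0.940) and Rb1cc1 (0.939). Decr1 encodes a mitochondrial enzyme of unsaturated fatty acid oxidation, and Coq8a a kinase-like protein of coenzyme Q synthesis. As for Nmrk2, the same 2 hearts lie at 1 end of these relations, and no test was made.

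Naprt, which starts the route from nicotinic acid, was lowest in the knockout banded hearts, and here knockout banded 1 was as low as the others. Its intensities were 134, 128 and 95.6 in wild-type sham, 94.3, 129 and 101 in wild-type banded hearts. They were 164, 111 and 122 in knockout sham hearts, and 75.9, 89.7 and 74.9 in knockout banded hearts. The 3 knockout banded arrays lay below all 9 others. The knockout banding difference was -0.61 (SE 0.17), and -0.58 (SE 0.19) without knockout banded 1. Among banded hearts the genotypes differed by -0.36 (95% interval -0.73 to 0.01, limma adjusted p = 0.352), and the wild-type banding difference was -0.12 (95% interval -0.49 to 0.24, limma adjusted p = 0.983). Nadsyn1, the gene of a later enzyme of that route, read 68.3 to 101 over all 12 arrays. Its knockout banding difference was 0.05 (95% interval -0.27 to 0.36), and 0.03 (SE 0.17) without knockout banded 1.

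The adenylyltransferase genes showed no shared pattern. Nmnat3, whose enzyme is mitochondrial, read 166, 251 and 174 in wild-type sham and 163, 144 and 117 in wild-type banded hearts, so its wild-type groups did not overlap. That difference was -0.43 (95% interval -0.93 to 0.07, limma adjusted p = 0.921). In knockout hearts Nmnat3 read 252, 172 and 231 after sham operation and 257, 133 and 150 after banding, with knockout banded 1 the highest of all 12 arrays. The knockout banding difference of Nmnat3 was -0.30 (SE 0.23), and -0.56 (SE 0.20) without knockout banded 1. The other Nmnat3 probe set stayed between 1.79 and 25.1. Nmnat1, the nuclear form, read 102 to 159 over all arrays at its brighter probe set, and its banding differences were -0.11 (95% interval -0.42 to 0.20) in wild type and 0.08 (-0.22 to 0.39) in knockout. Without knockout banded 1 the knockout difference of Nmnat1 was 0.04 (SE 0.16).

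Nadk, the cytosolic NAD kinase gene, varied least. It read 324 to 419 over the 12 arrays, with banding differences of 0.02 (95% interval -0.19 to 0.24) in wild type and -0.10 (-0.32 to 0.11) in knockout hearts. Without knockout banded 1 the knockout difference of Nadk was -0.04 (SE 0.11). Its 2 probe sets did not track each other (Pearson r = -0.01 over 12 arrays), and the dimmer one read 155 to 194.

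Nmrk1, the kinase found in most tissues, was too dim for the test across genes, which used the upper 60% of genes by mean value. Its brightest probe set read 38.9, 67.1 and 46.7 in knockout sham hearts and 13.9 to 31.2 in the other 9, so the knockout sham arrays stood above all others. In a fit of every single-gene probe set the sham genotype difference was 0.75 (SE 0.23, limma adjusted p = 0.919). Its other probe sets read at most 33.2 and 13.7 and did not separate the knockout sham arrays. About 25.8 to 29.8% of all probe sets read below 16 in an array, and no detection calls were used here.

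Across the 8 members that passed the filter, the wild-type comparison gave 0 calls. Limma called 0% of 10916 genes for banding in wild type at an adjusted p under 0.05, and 534 genes, none of them a member, had an unadjusted p under 0.05. The members' median difference was -0.11, against -0.02 over all tested genes. Nmnat3 was the 1 of 8 members whose arrays did not overlap, as was the case for 9.93% of all tested genes.

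For banding in knockout hearts, limma called 0 of the 7 tested members other than Nmrk2, beside 3.81% of all tested genes. An unadjusted p under 0.05 was reached by 3 of the 7, and by 2300 of 10916 tested genes. These counts are a description, and Nmrk2 is left out of them because it was chosen on this comparison. The median of all 8 was -0.20 against -0.02 for all genes, with 3 members above 0 and 5 below. Naprt and Nnt were the 2 of these 7 whose arrays did not overlap, beside 26.6% of tested genes. Between genotypes 0 of 8 did not overlap in sham hearts, beside 10.8% of tested genes, and 1 of 8, Naprt, in banded hearts, beside 19.1%. Without knockout banded 1, 2 of the 7 were called, beside 13.2% of all genes, and this too is a description. The wild-type and knockout comparisons share no arrays, but the fit pools their spread. The plot of banding differences gives them side by side.

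**Figure D4:**
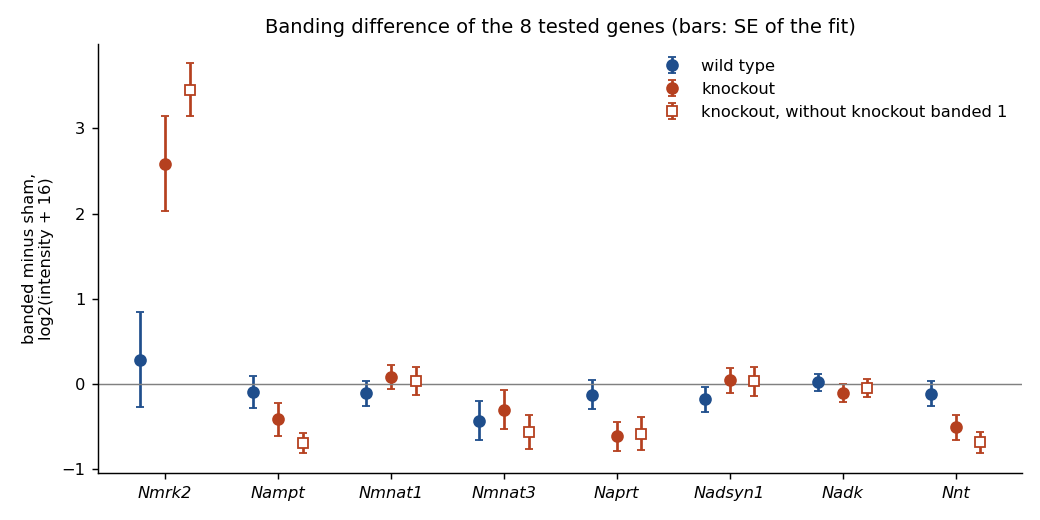
Banded minus sham difference on the log2(intensity + 16) scale for the 8 tested genes, in wild type (blue), in knockout (red) and in knockout without the array knockout banded 1 (open squares), with the SE of the fit as bars. Nmrk2 stands at 0.29 in wild type and at 2.59 and 3.45 in knockout, and leaving out the array moves Nampt from -0.41 to -0.69 and Nnt from -0.51 to -0.68.

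Between genotypes, limma called 0% of all genes, and so 0 members, in sham hearts, in banded hearts, in the average over surgery and in the interaction. Unadjusted p under 0.05 was reached by 570, 1594, 1158 and 994 genes in these comparisons, and by 0, 1 (Nnt), 1 (Nnt) and 0 of the 7 tested members other than Nmrk2. The interaction, which asks whether banding acts differently without apelin, was -0.49 for Naprt (95% interval -1.01 to 0.03, limma adjusted p = 0.559), -0.40 for Nnt (-0.83 to 0.04, limma adjusted p = 0.574) and -0.32 for Nampt (-0.90 to 0.26, limma adjusted p = 0.741). Without knockout banded 1, Nampt and Nnt passed among banded hearts, 2 of 7 beside 6.09% of all genes. In the average over surgery Nampt (-0.38) then passed, 1 of 7 beside 1.28%, and in the interaction 0 of 7 did, beside 1.91%.

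Other genes of NAD metabolism that passed for banding in knockout hearts were Nadk2, Pnp, Mthfd1 and Aldh1l2. Their lists were chosen with earlier results of these data known, so the adjusted p-values are a description. Nadk2, Pnp and Mthfd1 did not pass when any of knockout sham 1, 2 or 3 or knockout banded 2 or 3 was left out, with limma adjusted p up to 0.147, 0.105 and 0.104. Aldh1l2 did not pass without knockout sham 2, knockout sham 3, knockout banded 2 or knockout banded 3 (limma adjusted p up to 0.106). Nadk2, the mitochondrial NAD kinase gene, fell by 0.76 log2 (SE 0.17, limma adjusted p = 0.0320). It was 1 of 5 tested genes of the NMN and NADP list, and the other 4 did not pass, beside 3.81% of all tested genes called. It read 909, 1082 and 945 in knockout sham hearts, 817, 453 and 502 in knockout banded hearts, and 745 to 1005 in wild-type hearts. As for Nampt, knockout banded 2 and 3 were the lowest of the 12. All 4 of its probe sets had negative differences, from -0.76 to -0.22.

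Of 7 genes of nicotinamide clearance and nucleoside supply 1 rose and 6 did not pass, beside 3.81% of all genes called. Pnp, the purine nucleoside phosphorylase, which can split nicotinamide riboside, rose by 0.54 (SE 0.10, limma adjusted p = 0.0213). It read 490, 478 and 480 in knockout sham hearts, and 644, 692 and 791 in knockout banded hearts, with wild-type hearts at 530 to 666, so the knockout sham hearts were the lowest group. Without knockout banded 1, Nnmt (1.01), the methyltransferase that removes nicotinamide, and Nt5e (1.03), an ectonucleotidase, were also called, 3 of 7 beside 13.2% of all genes.

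Of 12 tested genes other than Nnt listed as NADPH sources or related enzymes, 2 fell and 10 did not pass, with 3.81% of all genes called. Aldh1l2, a mitochondrial folate dehydrogenase, fell by 1.1 on the log2 scale (SE 0.22, limma adjusted p = 0.0213), from 104, 202 and 171 in knockout sham hearts to 82.3, 58.1 and 52.7 after banding. Mthfd1, a cytosolic folate enzyme, fell by 0.55 (SE 0.10, limma adjusted p = 0.0213), and its other probe sets were at -0.26 and -0.15. For both genes knockout banded 1 lay below all 9 arrays of the other groups. Without that array 4 of 12 were called lower, Idh1 and Me3 in addition, with 13.2% of all genes called.

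Genes that consume NAD did not pass when all arrays were used. Of 13 tested sirtuin, polymerase and related genes 0 were called for banding in knockout, beside 3.81% of all tested genes. The smallest p was that of Sirt5, a mitochondrial deacylase gene, at -0.38 (SE 0.10, limma adjusted p = 0.0587), and without knockout banded 1 Sirt5 (-0.40) and Parp1 (-0.29) were called lower, 2 of 13 beside 13.2% of all genes, a share near the background. Of 6 transporter genes 0 passed, beside the same 3.81%, with Slc29a1, a nucleoside carrier, at -0.38 (SE 0.14, limma adjusted p = 0.147). Of the de novo route from tryptophan 8 of 9 genes were in the table and only Afmid was bright enough to test, at -0.81 (SE 0.31, limma adjusted p = 0.155). In wild-type hearts 0 genes of these 6 lists passed for banding, beside 0% of all tested genes.

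**Figure D5:**
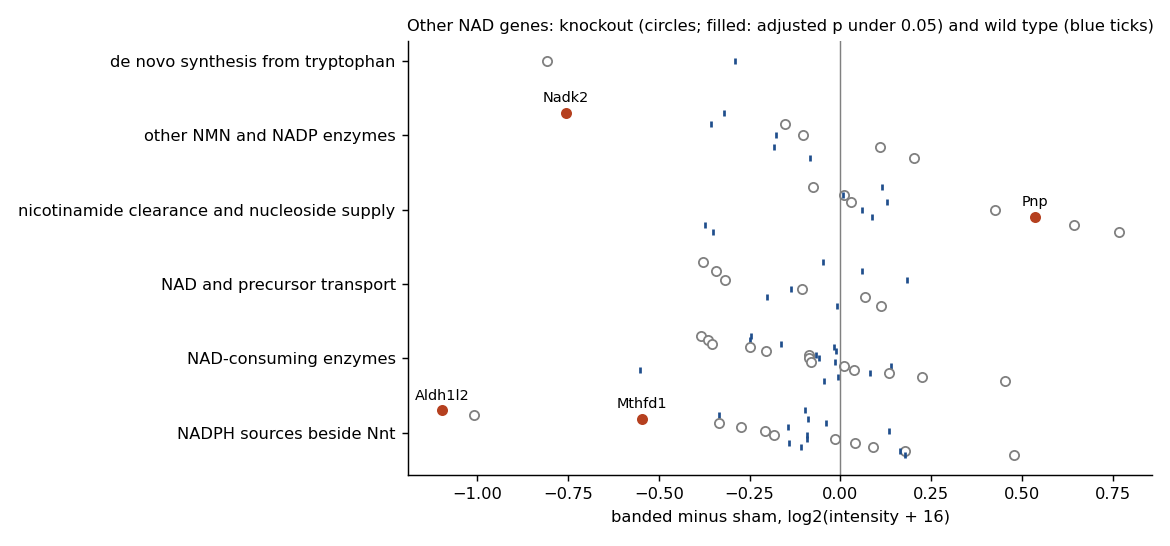
Banded minus sham difference of the tested genes of 6 further NAD lists, on the log2(intensity + 16) scale, in knockout hearts (circles, filled where limma's adjusted p was under 0.05) and in wild-type hearts (blue ticks, at the same height as that gene's circle). Nadk2, Aldh1l2 and Mthfd1 are filled below 0 and Pnp above 0, and no wild-type value was called.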

How the data were processed

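Biotin-labelled total RNA from 12 hearts was read on Affymetrix arrays, per the labels. The values deposited by the authors are linear intensities per probe set, and the sources used here do not name their software or scaling. Each array's mean, with 2% of values trimmed at each end, was 150, so no further scaling was applied. Of 45101 probe sets, 64 controls were left out, and 34945 had 1 gene in the platform annotation.

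Intensities were transformed as log2(value + 16). A gene was represented by its probe set of highest mean, and the upper 60% of 18193 genes (10916) were tested with limma 3.58.1 (R 4.3.3; 4 group means, eBayes with a variance trend), two-sided, with Benjamini-Hochberg adjustment over all tested genes. The 95% intervals come from this fit, which was also tested on simulated data. The number of arrays limits the precision, and each p-value weighs a difference against the spread between arrays within groups, pooled over the 4 groups.

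The members and lists were chosen with earlier results of these data known. Genotype averaged over surgery was planned as a test for Nmrk2 too, and is given for it as a value because it uses the arrays it was chosen on. Named genes are the members, genes of the NAD lists past the threshold (or the 1 of smallest p), the 5 genes most correlated with Nmrk2 or Nnt, and genes that check load and labels; Nnmt, Nt5e, Idh1, Me3 and Parp1 were added because they passed without knockout banded 1. Promoter windows were matched by symbol for 7 of 9 members. Same-numbered arrays did not deviate together (18 pairs, correlations -0.281 to 0.233, 2 over 0.1), so numbers were not taken as pairs.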

Additional observations from a re-analysis of the deposited data

How the results depend on the processing

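Other settings changed how many genes were called far more than the members' differences. For banding in knockout, 416 genes were called, and 212 with no filter, 1870 with array weights, 233 with every single-gene probe set, 74 with only the groups compared, 1351 without both knockout banded 1 and wild-type banded 3, and 9 to 1441 on leaving out 1 array. Counts of members here include Nmrk2 and are a description. Members called there were 1, and 0 with no filter, every probe set or only the groups compared, 4 with array weights, 3 without both arrays and 0 to 3 on leaving out 1. The Nmrk2 difference was 3.45 without both arrays and 1.95 to 3.45 on leaving out 1. With the replicate block 237 genes were called for banding in knockout and 1 for knockout against wild type in banded hearts, and the numbers do not pair the arrays. For genotype averaged over surgery, 3 genes were called with the mean of probe sets, 4 with every probe set, 84 without both arrays (2 members) and 0 to 140 (0 to 2 members) on leaving out 1. In sham hearts 1 gene was called with every probe set, and 0 to 1 on leaving out 1 array. In banded hearts 581 genes were called with array weights (3 members), 1 with the mean of probe sets, 356 without both arrays (2 members) and 0 to 665 (0 to 3 members) on leaving out 1. For the interaction 96 genes were called without both arrays (1 member) and 0 to 208 (0 to 1 member) on leaving out 1, and for banding in wild type 0 to 3. The highest of these ranges came without knockout banded 1, except for banding in wild type, where it came without wild-type sham 1.

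Of 37 fitted member values, 12 changed sign under some setting, none larger than 0.273 in size. With the mean of probe sets Nadk read -0.00134 for banding in wild type and -0.00547 in banded hearts, and Nmnat3 read -0.149 averaged, -0.125 in sham, -0.173 in banded hearts and -0.0485 for the interaction. Array weights gave Nmnat3 -0.0334 for the interaction. Quantile normalization gave Nadsyn1 0.0325 averaged, and Nmnat1 0.0260 and Nadk -0.00631 in banded hearts. Median scaling gave Nadsyn1 0.0403 averaged, Nnt 0.0267 in sham and Nmnat1 0.0556 in banded hearts. Without both arrays Nmnat1 read 0.0237 and Nmnat3 -0.110 in banded hearts, and Nmnat3 -0.254 for the interaction. On leaving out 1 array the ranges were -0.0268 to 0.0801 for Nadk with banding in wild type, -0.0721 to 0.0406 for Nadsyn1 averaged, and in sham hearts -0.142 to 0.0210 for Nampt, -0.0207 to 0.235 for Naprt and -0.0987 to 0.0521 for Nnt. In banded hearts they were -0.0609 to 0.0922 for Nmnat1, -0.0137 to 0.212 for Nadsyn1 and -0.0309 to 0.0764 for Nadk, and -0.138 to 0.302 for the Nmnat3 interaction. The cause of these changes was not tested.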
